A study of Homo sapiens with 20 samples.

Results

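The 4 exon arrays of LP-1 cells exposed to a BET inhibitor were compared with the 2 arrays of untreated LP-1 cells, over all 22011 probe sets, 6 of the 20 arrays deposited. LP-1 is an established human multiple myeloma line, grown in IMDM with fetal bovine serum. The exposed cells received 500 nM of the inhibitor for 4 h (2 arrays) or 8 h (2 arrays), and the untreated cells were taken at 0 h with no compound. Another 4 LP-1 arrays hold cells given the inactive enantiomer, the mirror-image molecule of the inhibitor, at the same dose and times, and 10 arrays hold the Burkitt lymphoma line Raji under the same design. The labels do not name the compound, and they number the 2 replicates of a group without saying whether these were separate cultures, so p-values measure the spread between these samples, which may be technical. No untreated or vehicle-treated sample at 4 h or 8 h was analysed here, so compound and time in culture cannot be told apart in the comparison with untreated cells. The enantiomer arrays, matched in dose and time, are given beside it.

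BET proteins, BRD2 and BRD3 among them, hold paired bromodomains that bind acetylated lysines on histone tails, and bring the elongation kinase P-TEFb to promoters and enhancers. A BET inhibitor occupies the acetyl-lysine pocket and displaces the proteins from chromatin. In multiple myeloma the oncogene MYC is often driven by translocated or amplified enhancers that carry much BET protein, which is why it became the best known target of these compounds.

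Untreated LP-1 arrays carried genes of plasma cells, the cell type from which myeloma arises. The plasma cell transcription factor IRF4 had log2 values of 10.96 and 11.26 in LP-1 against 5.35 and 5.53 in untreated Raji, and the plasma cell regulator PRDM1 had 10.06 and 10.18 against 5.93 and 5.93. TNFRSF17, the receptor also called BCMA, stood at 9.33 and 9.38 against 4.76 and 4.79. The B cell genes MS4A1, PAX5, CD22, CR2 and BCL6, which plasma cells lose, averaged between 3.41 and 5.38 in LP-1 and between 8.56 and 10.92 in Raji. CD38, another plasma cell surface marker, did not separate the lines, with means of 8.37 in LP-1 and 8.92 in Raji, and neither did the B cell gene CIITA, with 6.87 and 7.20. SDC1, the surface proteoglycan used to sort plasma cells, was less uniform, at 5.99 and 7.01 in the LP-1 arrays. With the inhibitor, none of 8 myeloid, 12 epithelial and fibroblast and 2 erythroid markers passed limma's test against untreated cells (1, 1 and 0 of them had an unadjusted p under 0.05), and of 14 T and NK cell markers NCAM1 and TRAT1 were lower. The call of NCAM1 was lost without either untreated array, without inhibitor replicate 1 at 4 h and without replicate 2 at 8 h (adjusted p up to 0.225).

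The 10 LP-1 arrays had medians between 5.26 and 5.39 on the deposited log2 scale, and replicates of a group correlated at 0.973 to 0.989 over all probe sets. Their upper quartiles moved with treatment. The upper quartile was 7.21 and 7.23 in the untreated arrays, 6.80 and 7.03 after 4 h of inhibitor, 7.10 and 7.05 after 8 h, and 6.91 to 7.16 with the enantiomer. The lowest belonged to replicate 1 of the inhibitor at 4 h. In bulk RNA, fewer cells of a kind and less RNA per cell cannot be told apart. The part of these array-wide differences in the counts below was not tested beyond the rescaled fits given beside them.

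More transcripts were lower than higher in the inhibitor arrays. Of 22011 probe sets, 2028 (9.21%) passed limma's moderated test at an adjusted p under 0.05, with 1720 lower (7.81%) and 308 higher (1.4%). Changes over 2-fold made up 385 of the lower and 82 of the higher calls. The median change of the lower calls was -0.74 on the log2 scale and that of the higher calls 0.71. No called probe set changed sign between 4 h and 8 h. Calls rest on the mean of both times against the same untreated arrays, which selects for equal signs. With 1 probe set per gene, 1415 of 14232 genes were lower (9.94%) and 205 higher (1.44%). These per-gene shares are the background for the gene groups below. All 4 inhibitor arrays lay below both untreated arrays for 4046 probe sets (18.4%) and above both for 2031 (9.23%).

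The excess of falls depended on how the arrays were scaled, and the counts on single untreated arrays. The share of calls that were higher was 15.2% on the deposited values, 25.2% with each array centred on its median (434 of 1724 calls) and 36.8% after quantile normalization (639 of 1736). Lower calls outnumbered higher ones under each of these settings. With untreated replicate 1 left out 656 probe sets passed, and with untreated replicate 2 left out 746. Leaving out 1 inhibitor array at a time gave between 1491 and 2679 calls. A fit to the 6 compared arrays alone called 8, of which 5 were lower. There the spread is estimated without the other 14 arrays. The 4 h and 8 h arrays also form 1 group in it, so differences between times count as spread. CCR1, MYC, FTL and GPR50 were among those 8, and they were the genes named here that passed under all settings tried.

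**Figure D1:**
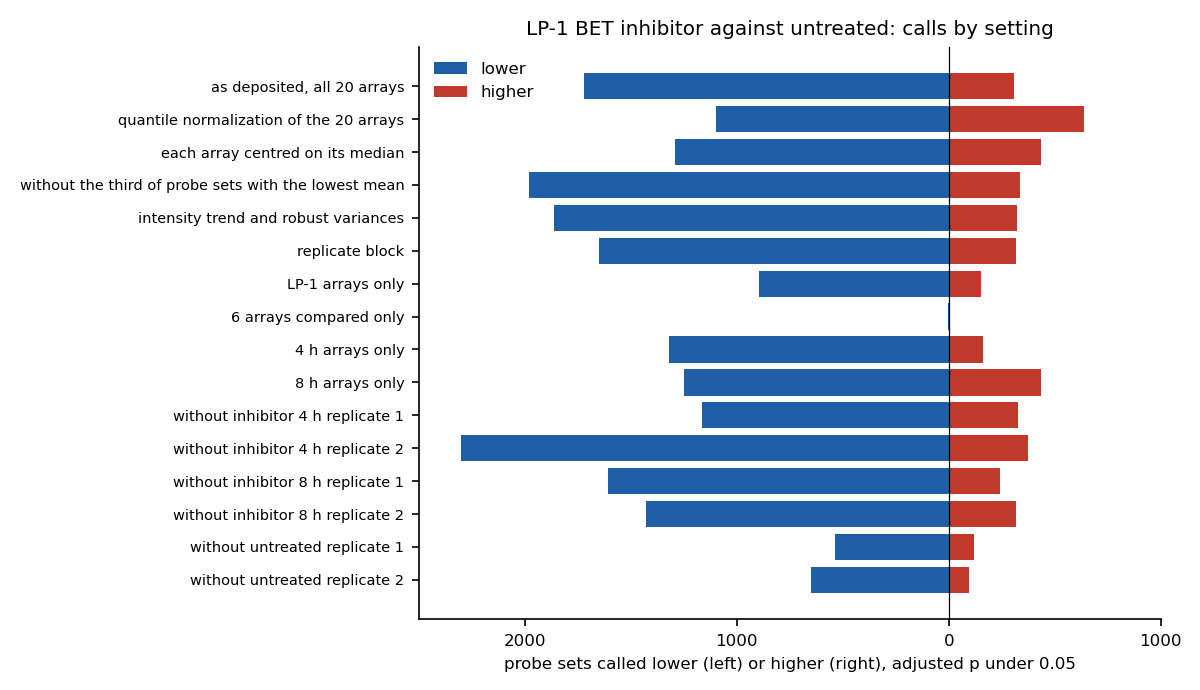
Number of probe sets called higher or lower (adjusted p under 0.05) with the BET inhibitor against untreated LP-1 cells, on a linear axis, for the deposited values and each alternative setting. The lower calls exceed the higher ones in each setting, and the counts shrink when an untreated array is left out (656 and 746) or when the 6 arrays are fitted alone (8).

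MYC fell in every array. This transcription factor drives growth and ribosome production in myeloma cells. Its log2 values were 9.33 and 9.76 without compound, 7.38 and 7.18 after 4 h and 7.66 and 7.49 after 8 h of inhibitor. The groups did not overlap, and the change was -2.12 ± 0.13 (SE; 4 against 2 arrays), a 4.35-fold fall (adjusted p 1.27e-05). With the enantiomer MYC read 9.59, 9.58, 9.37 and 9.47, within the untreated values, and the inhibitor lay 2.08 below it on the log2 scale (log2 difference -2.08, adjusted p 2.29e-06). Among 12 measured genes of the MYC network, the partners and antagonists that share its dimerisation partner MAX, MYC was the single one to pass.

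HEXIM1 and BRD2, genes of the BET and P-TEFb machinery, rose. HEXIM1, which holds P-TEFb in an inactive complex with 7SK RNA and is widely used as a marker of BET inhibition, read 7.41 and 7.22 untreated, 8.29 and 8.07 at 4 h and 8.68 and 8.34 at 8 h. All 4 exposed arrays were above both untreated ones, with a rise of 1.03 ± 0.12 (adjusted p 0.00028). BRD2, a target of the compound class, rose by 0.80 ± 0.10 (adjusted p 0.00039), from 9.45 and 9.57 to 10.12 and 10.08 and then to 10.50 and 10.53. BRD3, its close relative, changed by 0.05, with a 95% interval of -0.23 to 0.33 (adjusted p 0.875). Of 13 measured genes of this group, HEXIM1, BRD2 and the elongation factor gene AFF4 rose and MLLT3, another elongation complex gene, fell. The call of AFF4 (0.46, adjusted p 0.0378) was lost without either untreated array, without inhibitor replicate 2 at 4 h, and without replicate 2 at 8 h, with adjusted p up to 0.289.

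The largest fall among singly named genes was that of CCR1, a chemokine receptor of myeloma cells. It read 7.24 and 7.42 in untreated cells, 3.92 and 3.90 at 4 h and 2.80 and 3.54 at 8 h. The change was -3.79 ± 0.34 (adjusted p 5.21e-05), and the 4 exposed arrays lay far below both untreated arrays. The exposed values overlap those of untreated Raji, 2.80 and 3.18, and were not shown to be above background, so the size of the fall is not fixed by them. With the enantiomer it stayed between 6.67 and 7.33. Other receptors and signalling genes of the cell surface were among the 12 largest falls. RGS1, which switches off G protein signals of chemokine receptors, went from 6.24 and 6.31 to 3.83, 4.26, 4.13 and 4.76, a change of -2.03 ± 0.20 (adjusted p 0.000106). EDNRB, an endothelin receptor, went from 8.44 and 8.37 to 6.74 and 7.20 at 4 h and 5.87 and 5.72 at 8 h (-2.02 ± 0.19, adjusted p 8.85e-05). CXCL10, an interferon-induced chemokine, read 8.23 and 8.93 untreated, 7.30 and 7.59 at 4 h and 5.46 and 6.20 at 8 h (-1.94 ± 0.25, adjusted p 0.000566).

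PECAM1, an adhesion molecule also called CD31, fell by stages. Its values were 9.03 and 8.82 untreated, 7.12 and 7.83 at 4 h, and 5.20 and 4.80 at 8 h. The pooled change of -2.69 ± 0.23 (adjusted p 5.03e-05) therefore averages a smaller early and a larger late difference. The enantiomer arrays read 7.87, 7.78, 7.30 and 7.57, below both untreated arrays, with a difference of -1.30 from untreated that missed the threshold (adjusted p 0.0785). TNFSF15, a cytokine of the tumour necrosis factor family, showed the same order of groups. It read 6.78 and 6.17 untreated, 4.49, 4.40, 4.01 and 3.60 with the inhibitor (-2.35 ± 0.22, adjusted p 7.93e-05) and 5.69, 5.81, 5.29 and 5.23 with the enantiomer (-0.97 against untreated, adjusted p 0.134).

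The remaining large falls had the enantiomer nearer to untreated cells. SPRY1, a feedback inhibitor of receptor tyrosine kinase signalling, dropped from 7.05 and 6.40 to 4.04, 4.29, 4.58 and 4.57 (-2.35 ± 0.29, adjusted p 0.000403). SLC16A14, a member of the monocarboxylate transporter family, dropped from 7.71 and 7.80 to 5.24, 6.05, 5.25 and 5.22 (-2.32 ± 0.26, adjusted p 0.000198). ALKBH8, which modifies wobble uridines of transfer RNA, dropped from 7.85 and 7.66 to 5.77 and 6.20 at 4 h and 5.21 and 5.06 at 8 h (-2.20 ± 0.17, adjusted p 2.21e-05). GIMAP2, a lymphocyte GTPase gene, changed by -2.08 ± 0.27 (adjusted p 0.000585). In these 4 genes the inhibitor also lay below the enantiomer, by log2 differences of -1.79, -1.87, -1.83 and -1.39, each of which passed.

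**Figure D2:**
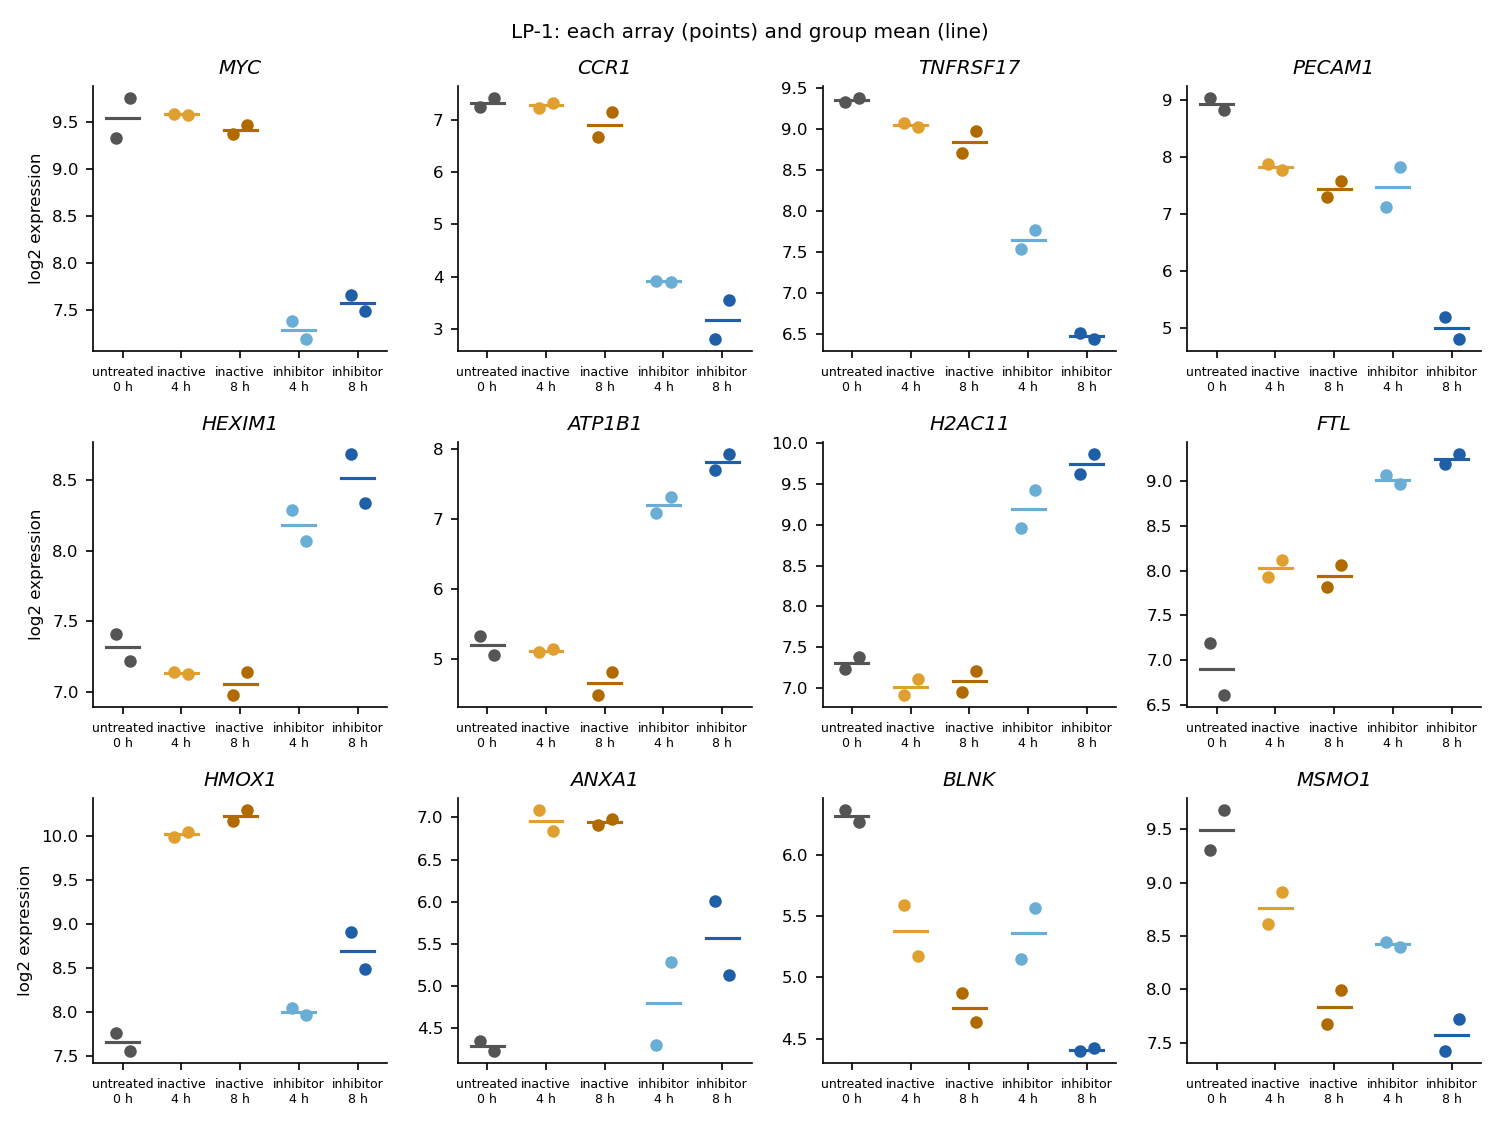
Log2 expression of 12 genes in each of the 10 LP-1 arrays, in panels by gene, for untreated cells, the inactive enantiomer and the BET inhibitor at 4 h and 8 h. Points are single arrays and lines mark group means of 2 arrays. MYC and CCR1 are low with the inhibitor alone, HMOX1 and ANXA1 are highest with the enantiomer, and BLNK and MSMO1 are low with both compounds.

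Of 19 plasma cell genes measured, 7 were lower (FKBP11, GPRC5D, POU2AF1, SLAMF7, TNFRSF13B, TNFRSF17 and XBP1), none was higher and 12 did not pass, with a median change of -0.31 against -0.02 over all 14232 genes. TNFRSF17, which binds the survival factors BAFF and APRIL, went from 9.33 and 9.38 to 7.54 and 7.77 at 4 h and 6.51 and 6.44 at 8 h (-2.29 ± 0.28, adjusted p 0.000381). SLAMF7, the surface receptor targeted by elotuzumab, went from 7.78 and 7.95 to 6.55 and 6.84 and then to 5.68 and 5.49 (-1.73 ± 0.16, adjusted p 5.89e-05). XBP1, the secretory transcription factor, changed by -0.86 ± 0.13 (adjusted p 0.0017). IRF4 read 10.96 and 11.26 untreated and 10.60, 10.86, 11.10 and 11.32 with the inhibitor. Its groups overlapped, and the change of -0.14 had a 95% interval of -0.50 to 0.22 (adjusted p 0.697). Without untreated replicate 2, 4 of the 19 passed as lower with a median of -0.15, and without replicate 1, 5 did. After quantile normalization 5 passed and the median was -0.18.

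Of 21 B lineage factors and B cell receptor genes, IKZF3, CIITA, BLNK and IKZF1 were lower and BCL6 was higher, and the median was -0.06 (0.03 after quantile normalization). CIITA, the master activator of HLA class II genes, was among the best measured falls, from 6.89 and 6.85 to 5.46, 5.42, 4.910 and 5.001 (-1.67 ± 0.09, adjusted p 2.79e-06). The enantiomer arrays of CIITA read 6.36, 6.54, 6.35 and 6.26, below both untreated arrays. That difference of -0.49 missed the threshold in limma's test (adjusted p 0.0785), and the inhibitor against the enantiomer gave -1.18 (adjusted p 3.29e-06). IKZF3, which encodes the lymphoid factor Aiolos, went from 8.58 and 8.44 to 6.88, 7.42, 6.95 and 6.24 (-1.64 ± 0.19, adjusted p 0.000292). IKZF1, which encodes its relative Ikaros, changed by -0.58 ± 0.13 (adjusted p 0.0177), a call lost without either untreated array (adjusted p up to 0.125). BCL6, a repressor of germinal centre B cells, read 3.44 and 3.39 untreated and 4.02, 4.04, 4.47 and 3.95 with the inhibitor (adjusted p 0.0218). It no longer passed without either untreated array or without inhibitor replicate 1 at 8 h, where none of the 21 was higher.

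Chemokine and RGS genes gave 7 falls and 1 rise among 17. CCR1, CX3CR1, CXCL10, CXCR4, P2RY10, RGS1 and RGS16 were lower, and the chemokine gene CCL5 was higher. The other 9 did not pass. The median of the group was not stable, at -0.07 on the deposited values, -0.36 without untreated replicate 1, -0.26 without inhibitor replicate 1 at 4 h and -0.014 after median centring. No gene of the group passed as higher without either untreated array or without inhibitor replicate 1 at 4 h. P2RY10, a lysophospholipid receptor of lymphocytes, went from 6.26 and 6.33 to 4.35, 5.12, 4.90 and 4.16 (-1.66 ± 0.25, adjusted p 0.00147). The enantiomer arrays of P2RY10 stood at 6.62, 6.89, 6.56 and 6.71, above both untreated arrays, although that difference of 0.40 missed the threshold (adjusted p 0.609).

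Ribosome assembly genes gave the largest share of falls of any group examined. Of 26 measured, 19 were lower and none higher, and all 4 inhibitor arrays lay below both untreated arrays for 24. Over all probe sets 18.4% lay below in this way, and 9.94% of all genes were called lower. Of the 1720 lower calls, 145 were in the third of probe sets with the lowest mean. These background shares were not matched for brightness, and this list averaged 8.05 and 8.13 in the untreated arrays. The median change was -0.62 with the inhibitor, and the median difference between enantiomer and untreated cells was -0.07. NOP16, a nucleolar assembly factor, went from 9.23 and 9.55 to 8.32 and 8.67 at 4 h and 7.73 and 7.90 at 8 h (-1.24 ± 0.18, adjusted p 0.00124). PPRC1, a coactivator induced by growth signals, changed by -1.03 ± 0.11 (adjusted p 0.000201), the RNA methyltransferase gene NOP2 by -0.76 ± 0.12 (adjusted p 0.00158), and the RNA acetyltransferase gene NAT10 by -0.76 ± 0.12 (adjusted p 0.00163). The other members that fell were DDX10, DDX21, GAR1, MRTO4, NIP7, PES1, POLR1A, POLR1B, POLR1D, RRP9, RRS1, UBTF, UTP20, WDR12 and WDR74. After quantile normalization 11 of the 26 were lower with a median of -0.44. Without untreated replicate 1, 7 passed, without untreated replicate 2, 8 did, and without inhibitor replicate 1 at 4 h, 13 did. The medians without these arrays were -0.62, -0.52 and -0.59.

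Nucleotide synthesis and one-carbon genes, which like ribosome genes are classic MYC targets, moved less. Of 21 measured, 7 were lower and none higher, with a median of -0.37. After quantile normalization 3 were lower, and after median centring 4. GART, a purine synthesis enzyme, read 8.74 and 8.71 untreated and 7.96, 8.28, 8.00 and 7.79 with the inhibitor (-0.72 ± 0.12, adjusted p 0.00343). CAD, which starts pyrimidine synthesis, changed by -0.66 ± 0.13 (adjusted p 0.0076), a call lost without untreated replicate 2 (adjusted p 0.108). DHODH, PFAS, GMPS, MTHFD1 and SHMT1 were the other falls. The calls in this group came to 2 without untreated replicate 1, to 1 without untreated replicate 2, and to 4 without inhibitor replicate 1 at 4 h or without replicate 2 at 8 h.

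Of 44 clustered histone genes measured, 7 rose and none fell. Their transcripts are made in S phase and normally end in a stem loop without a poly(A) tail. The 7 were H2AC11, H2AC6, H2BC11, H2BC21, H2BC5, H3C8 and H4C16, and the median of the 44 was 0.32 where the enantiomer had -0.23. H2AC11 went from 7.23 and 7.38 to 8.96 and 9.43 at 4 h and 9.62 and 9.87 at 8 h, a rise of 2.16 ± 0.19 (adjusted p 5.03e-05). H2BC21 went from 7.27 and 7.36 to 9.37, 8.77, 8.69 and 10.14 (1.93 ± 0.30, adjusted p 0.00184), with a wide gap between the replicates at 8 h. H2BC11 went from 6.37 and 6.66 to 7.77, 8.37, 8.83 and 8.78 (1.93 ± 0.28, adjusted p 0.00122). H2BC5 reached a similar 2.16 with a larger error of 0.49 (adjusted p 0.0162), a call lost without either untreated array (adjusted p up to 0.135). None of these 4 passed with the enantiomer against untreated cells, and 17 of the 44 were higher in the inhibitor arrays than in the enantiomer arrays. Without either untreated array 4 of the 44 passed, and without replicate 1 the median was 0.21. Histone genes are near-identical copies, so the probe sets may share signal between them, which was not tested.

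The 250 bases before the RefSeq start of H2AC11, H2BC5 and H2BC21 are shown because these genes rose together and share a promoter layout, with HEXIM1 beside them as a non-histone gene that rose. Capitals mark CCAAT and TATAAA on either strand (ATTGG and TTTATA on the strand printed), where overlapping matches run together.
H2AC11: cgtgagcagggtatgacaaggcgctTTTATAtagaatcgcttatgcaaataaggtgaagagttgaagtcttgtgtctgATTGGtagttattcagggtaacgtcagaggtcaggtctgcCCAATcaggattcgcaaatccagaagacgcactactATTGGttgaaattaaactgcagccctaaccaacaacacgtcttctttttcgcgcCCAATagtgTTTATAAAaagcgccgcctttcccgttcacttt
H2BC5: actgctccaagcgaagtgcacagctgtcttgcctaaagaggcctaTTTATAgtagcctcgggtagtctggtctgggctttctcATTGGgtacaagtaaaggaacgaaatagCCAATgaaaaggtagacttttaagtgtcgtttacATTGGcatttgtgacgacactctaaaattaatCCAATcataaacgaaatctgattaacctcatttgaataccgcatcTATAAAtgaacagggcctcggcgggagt
H2BC21: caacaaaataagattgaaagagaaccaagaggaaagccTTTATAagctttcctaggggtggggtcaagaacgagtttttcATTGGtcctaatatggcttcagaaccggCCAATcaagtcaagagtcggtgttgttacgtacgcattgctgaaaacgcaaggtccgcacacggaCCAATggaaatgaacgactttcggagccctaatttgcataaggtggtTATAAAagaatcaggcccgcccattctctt
HEXIM1: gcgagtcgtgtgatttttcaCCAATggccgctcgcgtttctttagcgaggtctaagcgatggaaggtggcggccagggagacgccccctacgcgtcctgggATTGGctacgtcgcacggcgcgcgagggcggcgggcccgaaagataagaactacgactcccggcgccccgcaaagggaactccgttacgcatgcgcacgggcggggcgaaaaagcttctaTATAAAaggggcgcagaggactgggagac
The windows are chr6:27132793-27133042 (plus strand) for H2AC11, chr6:26157871-26158120 (plus) for H2BC5, chr1:149886683-149886932 (minus) for H2BC21 and chr17:45148225-45148474 (plus) for HEXIM1, each on GRCh38.p14 and read 5′ to 3′ along the gene. CCAAT matches numbered 4, 4, 3 and 2 in that order, and TATAAA matches 3, 2, 2 and 1. The start of H2BC11 lies 248 bases from that of H2AC11 on the opposite strand, so the pair share this window, and both rose. Of 27305 promoter windows in the RefSeq table, 33% held CCAAT, 11.1% TATAAA and 4.01% both. For 51 histone genes of the list with a window the shares were 86.3%, 66.7% and 56.9%, and 5 of the 7 that rose (71.4%) held both. CACGTG, the E-box bound by MYC and MAX, was present in 9.8% of 1204 windows of genes called lower, 6.43% of 171 called higher and 7.96% of all 11386 measured genes with a window. A match describes letters and not binding.

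Among probe sets with a single gene symbol, the largest rises besides histone genes were in genes of varied function. A probe set without a symbol had the largest rise of all calls, 3.19. GPR50, an orphan receptor related to the melatonin receptors, read 3.92 and 4.19 untreated, 6.11 and 6.83 at 4 h and 6.75 and 6.63 at 8 h (2.52 ± 0.29, adjusted p 0.00026). ATP1B1, a subunit of the sodium pump, read 5.33 and 5.06, then 7.09 and 7.32, then 7.70 and 7.93 (2.31 ± 0.19, adjusted p 3.54e-05). SAT1, which starts polyamine breakdown, went from 5.79 and 5.52 to 7.46, 7.39, 8.00 and 7.54 (1.94 ± 0.15, adjusted p 2.26e-05). Genes were named as largest rises only where the inhibitor and untreated groups were apart. Of GPR50, ATP1B1 and SAT1, none passed with the enantiomer against untreated cells. TUFT1, first known from tooth enamel, rose by 2.05 ± 0.19 (adjusted p 7.34e-05). PAG1, a membrane adaptor that brings the kinase CSK to lipid rafts, rose by 1.91 ± 0.20 (adjusted p 0.000152).

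The calls of OR2B6 and COX7A2, also among the 12 largest rises, were less secure. OR2B6, an olfactory receptor gene, read 4.78 and 4.28 untreated and 5.92, 6.96, 6.70 and 6.74 with the inhibitor, and its call was lost without either untreated array (adjusted p up to 0.133). COX7A2, a cytochrome c oxidase subunit gene, read 1.38 and 1.98 untreated and 4.79, 3.34, 3.39 and 2.90 with the inhibitor. These values are low on the array's scale, the enantiomer arrays reached 2.16 to 4.13, and the call was lost without either untreated array, without inhibitor replicate 1 at 4 h and without replicate 1 at 8 h (adjusted p up to 0.217). The files carry no test of detection, so a level near background cannot be told from expression.

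**Figure D3:**
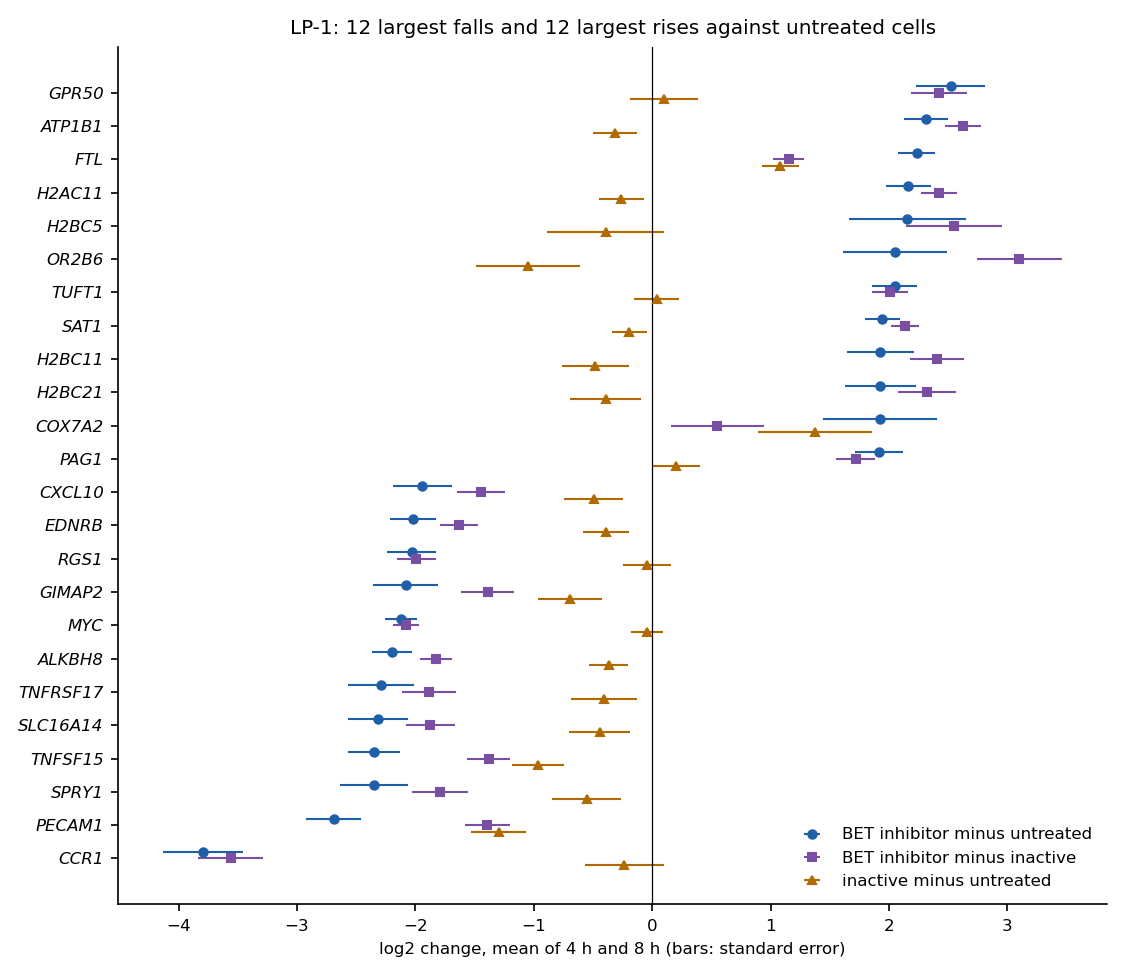
Log2 differences with standard errors for the 12 largest called falls and 12 largest called rises, among probe sets with a single gene symbol, of LP-1 cells with the BET inhibitor against untreated, beside the inactive enantiomer against untreated and the inhibitor against the enantiomer. Genes were taken only where all inhibitor arrays lay beyond both untreated arrays. Among these, CCR1 (-3.79) and GPR50 (2.52) lead the 2 directions. The enantiomer points lie near 0 for most genes, with FTL (1.08) among those farther out.

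Of 15 measured CDK inhibitors and antiproliferative genes, which restrain the cell cycle, 5 were higher and none lower, and the median was 0.31. TXNIP, an inhibitor of thioredoxin and of glucose uptake, went from 7.35 and 7.46 to 8.41, 8.83, 9.02 and 9.06 (1.42 ± 0.14, adjusted p 0.000106). TOB1 rose by 0.73, CDKN1A (p21) by 1.00, CDKN2D by 0.76 and GADD45B by 0.56, with adjusted p of 0.00284, 0.0217, 0.0184 and 0.0195. Of these 4 calls, each was lost without at least 1 untreated array (adjusted p up to 0.234), and 1 gene of the list passed without untreated replicate 2, with a list median of 0.17, and 3 without replicate 1. The median was 0.47 after quantile normalization. Among proliferation genes, 2 of 24 G1/S and replication genes (E2F2 and POLE2) and 2 of 22 G2/M genes (AURKA and FOXM1) were lower and ORC1 was higher. These shares of falls are near the 9.94% of all genes called lower. The list medians of -0.15 and -0.16 were 0.063 and -0.0013 after quantile normalization. With the enantiomer against untreated cells the medians were -0.12 and -0.21. The medians of the differences between compounds were -0.0009 and 0.054. The G2/M calls were lost without either untreated array, without inhibitor replicate 1 at 4 h and without replicate 2 at 8 h, and that of ORC1 without each array in turn. E2F2 went from 7.06 and 7.25 to 6.06, 6.22, 6.74 and 6.54 (-0.76 ± 0.11, adjusted p 0.000884).

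Immediate early genes, which respond within minutes to kinase signals, gave 6 rises and no fall among 21. ZFP36, which destabilises AU-rich messenger RNAs, read 6.31 and 6.34 untreated and 7.67, 7.60, 7.63 and 7.15 with the inhibitor (1.19 ± 0.13, adjusted p 0.000173). EGR1, a zinc finger transcription factor, read 6.13 and 6.32 untreated, 7.94 and 8.19 at 4 h, and 6.26 and 6.40 at 8 h. Against the untreated 0 h arrays, its pooled rise of 0.97 ± 0.15 (adjusted p 0.00148) thus rested on the 4 h arrays, and the 8 h arrays overlapped the untreated ones. The enantiomer arrays of EGR1 read 6.14 and 6.33 at 4 h and 4.96 and 5.375 at 8 h. At both times the inhibitor arrays of EGR1 lay above the enantiomer arrays. With both times pooled, that difference passed limma's test (adjusted p 1.73e-05). ATF3 and JUN rose by 0.72 and 0.71 (adjusted p 0.00139 and 0.0245), and JUND and IER3 completed the calls. Without either untreated array, or without inhibitor replicate 1 at 8 h, 3 of the 21 passed. The median of 0.27 was 0.17 without untreated replicate 2 and 0.44 after quantile normalization. SPRY1, described above, was the single call among 13 feedback inhibitors of ERK, the kinase that induces many immediate early genes.

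NRF2 targets and ferritin genes, which handle oxidants and iron, gave 5 rises and 1 fall among 12. FTL, the ferritin light chain, read 7.19 and 6.61 untreated, 9.07 and 8.97 at 4 h and 9.19 and 9.31 at 8 h (2.24 ± 0.16, adjusted p 2.21e-05). FTL was also higher with the enantiomer than in untreated cells, at 7.93, 8.12, 7.82 and 8.06 (1.08, adjusted p 0.0261). The inhibitor lay 1.15 above the enantiomer (adjusted p 0.000197). FTL has many processed pseudogenes, and whether they share its probe signal was not tested. SRXN1, which repairs oxidised peroxiredoxins, climbed from 6.83 and 7.01 to 7.62 and 7.92 at 4 h and 9.60 and 9.49 at 8 h (1.74 ± 0.17, adjusted p 8.85e-05). GCLC and GCLM, the subunits of the rate-limiting glutathione enzyme, and OSGIN1 had smaller rises, and UGDH was lower. OSGIN1 and UGDH lost their calls without either untreated array, without inhibitor replicate 1 at 4 h and without 1 of the 8 h arrays (adjusted p up to 0.184). For the list, 2 passed as higher without either untreated array or without inhibitor replicate 2 at 8 h, and 3 without replicate 2 at 4 h. After quantile normalization 7 were higher and none lower.

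HMOX1, the haem-degrading enzyme that is the best known NRF2 target, set the enantiomer apart. It read 7.76 and 7.56 untreated, 9.99, 10.05, 10.17 and 10.30 with the enantiomer, and 8.05, 7.97, 8.91 and 8.49 with the inhibitor. With the enantiomer it was 2.47 ± 0.25 above untreated cells (adjusted p 0.00559). The inhibitor arrays lay above both untreated arrays but the difference of 0.69 missed the threshold (adjusted p 0.109), and the inhibitor was 1.78 below the enantiomer on the log2 scale (log2 difference -1.78, adjusted p 0.000224). ANXA1, a phospholipid-binding protein gene, gave the same order. It read 4.34 and 4.22 untreated, 7.09, 6.83, 6.91 and 6.98 with the enantiomer (2.67, adjusted p 0.00618), and 4.30, 5.29, 6.005 and 5.13 with the inhibitor (0.90, adjusted p 0.0808). HMOX1, ANXA1 and FTL were the 3 probe sets called higher with the enantiomer against untreated cells. Compound and time in culture cannot be told apart in that comparison either.

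Against untreated cells the enantiomer gave 17 calls (0.0772%), 3 higher (0.0136%) and 14 lower (0.0636%), while 2450 probe sets had an unadjusted p under 0.05. Leaving out 1 array gave 5 (without untreated replicate 1) to 14, with 7 without untreated replicate 2 or either 4 h enantiomer array and 9 without replicate 2 at 8 h. This comparison shares the untreated arrays with that of the inhibitor, so values are given side by side. BLNK, which links the B cell receptor to downstream enzymes, read 6.37 and 6.27 untreated, 5.59, 5.17, 4.87 and 4.63 with the enantiomer, and 5.15, 5.57, 4.40 and 4.42 with the inhibitor. Its change was -1.43 with the inhibitor and -1.25 with the enantiomer, and the difference between the compounds was -0.18 with a 95% interval of -0.44 to 0.07 (adjusted p 0.446). MSMO1, a sterol demethylating enzyme, changed by -1.50 with the inhibitor and by -1.19 with the enantiomer, with a difference of -0.30 (-0.56 to -0.04, adjusted p 0.177). For RPS6KA6, a ribosomal S6 kinase gene, both changes were -1.41 (difference 0.00, -0.37 to 0.38). PRKAA2, a catalytic subunit of the energy sensor AMPK, changed by -0.89 and -1.02, and ALX1, a homeobox gene with values between 2.51 and 3.94 in these arrays, by -1.19 and -1.10. The call of PRKAA2 with the inhibitor was lost without untreated replicate 2 (adjusted p 0.0755).

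SMC1B and USP2 also fell with both compounds, but further with the inhibitor. SMC1B, a cohesin subunit known from meiosis, changed by -1.56 with the inhibitor and -0.96 with the enantiomer (difference -0.61, adjusted p 0.00261). USP2, a ubiquitin protease, changed by -1.77 and -1.09 (difference -0.68, adjusted p 0.00602).

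Of 17 sterol synthesis genes measured, 5 fell with the inhibitor (DHCR7, HMGCS1, MSMO1, SQLE and TMEM97) and none rose. The median change was -0.33 with the inhibitor and -0.37 with the enantiomer, and the median of the differences between compounds was 0.03. After quantile normalization the median with the inhibitor was -0.16, and with the 4 h arrays alone it was -0.20 with 1 call. SQLE, the squalene epoxidase, read 10.39 and 10.73 untreated, 10.06, 10.22, 9.66 and 9.80 with the inhibitor, and 10.29, 10.36, 9.80 and 9.90 with the enantiomer. Both compounds gave lower values at 8 h than at 4 h. HMGCS1, which makes the substrate of HMG-CoA reductase, changed by -0.60 and -0.64 (adjusted p 0.0234 and 0.137), a call lost without either untreated array or without inhibitor replicate 1 at either time (adjusted p up to 0.242). The call of SQLE was lost without untreated replicate 2 (adjusted p 0.225). Without untreated replicate 1, 3 of the 17 passed, and without replicate 2, 2 did. Culture time alone was not sampled, so its part in these falls cannot be told apart from that of either compound.

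Set directly against the enantiomer at matched dose and times, the single pair of stereoisomers studied, the inhibitor gave 1554 calls (7.06%), with 577 higher (2.62%) and 977 lower (4.44%). Without replicate 1, replicate 2 of the 4 h enantiomer arrays or replicate 2 of those at 8 h, 828, 844 and 946 passed. The split depended on scaling and on single inhibitor arrays. After quantile normalization it was 847 higher and 1003 lower. Without inhibitor replicate 1 at 4 h it was 619 and 630, and without inhibitor replicate 2 at 4 h it was 441 and 1136. At 4 h alone there were 502 calls, 83 higher and 419 lower, and at 8 h alone 1262, with 828 higher and 434 lower. Of the 26 ribosome assembly genes, 19 were lower than with the enantiomer, with a median of -0.51. For the plasma cell list it was 7 of 19 and for nucleotide synthesis genes 4 of 21. Among 14 genes reported to rise with BET inhibition in other cells, 10 rose against untreated cells and 11 against the enantiomer (medians 0.90 and 1.11). Against the enantiomer 1 of the 14 was lower, and 1 of the 14 was higher with the enantiomer than in untreated cells. Among 21 reported to fall, 8 and 10 were lower (medians -0.31 and -0.36, the first -0.18 after quantile normalization), and 1 was higher than with the enantiomer. Both lists were chosen with earlier results of these data known, so these counts are not an independent check. Without 1 untreated array 6 or 5 of the first list and 7 or 6 of the second passed. The fall of MYB, a transcription factor of blood progenitors on the second list, was -1.33 ± 0.16 (adjusted p 0.00041).

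**Figure D4:**
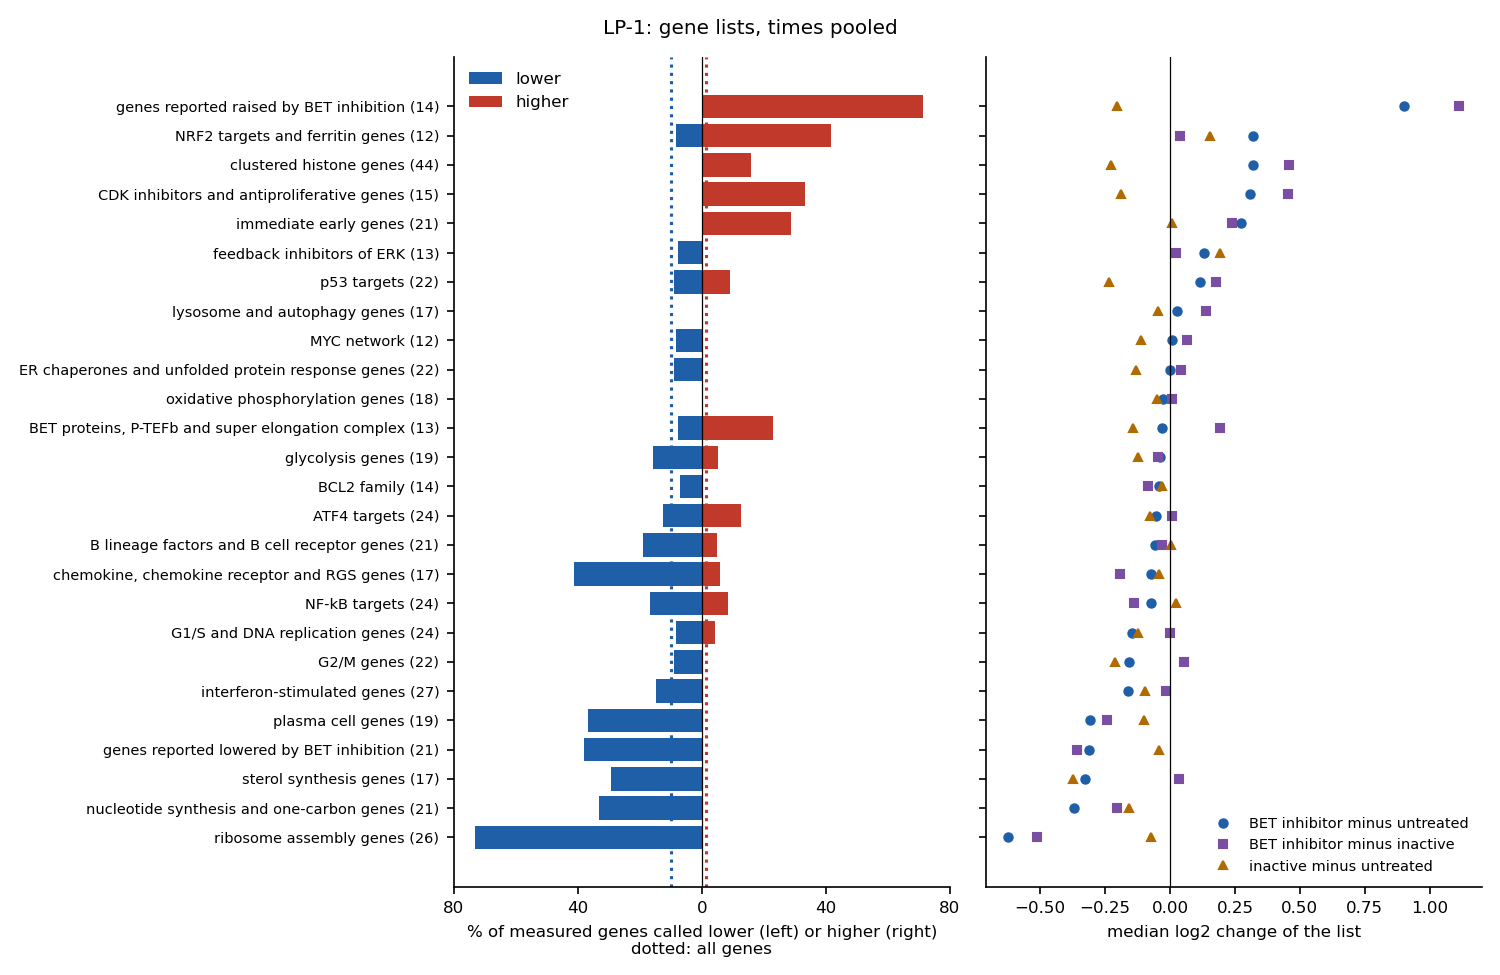
Left, percent of measured genes called higher or lower with the BET inhibitor against untreated LP-1 cells in each gene list, where dotted lines give the shares over all 14232 genes (1.44% higher and 9.94% lower). Right, median log2 difference of each list in 3 comparisons. Ribosome assembly genes show the largest share of falls (19 of 26), and the sterol list has like medians against untreated for both compounds (-0.33 and -0.37).

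Over all genes 9.94% were called lower and 1.44% higher, the background for the stress, inflammatory and survival groups. Calls went both ways among ATF4, NF-kB and p53 targets. Of 24 ATF4 targets, ASNS, ATF3 and DDIT3 rose and SLC7A5, STC2 and VLDLR fell. STC2, a secreted glycoprotein gene, went from 6.01 and 5.73 to 5.04, 4.64, 3.99 and 3.90 (-1.48 ± 0.20, adjusted p 0.00076). Of 24 NF-kB targets, NFKBIA, the inhibitor of the pathway, rose by 1.07 ± 0.14 (adjusted p 0.000684), CCL5 rose, and CXCL10, ICAM1, REL and TNFAIP3 fell. ICAM1, an adhesion molecule, changed by -0.88 ± 0.14 (adjusted p 0.00176). Among 22 p53 targets, CDKN1A and PLK2 rose while MDM2 (-0.89 ± 0.15, adjusted p 0.00294) and the death receptor gene FAS (-1.02 ± 0.15, adjusted p 0.00133) fell. Of 27 interferon-stimulated genes, CXCL10, IFIH1, OAS1 and OAS2 fell and none rose. The calls of DDIT3, SLC7A5, PLK2, TNFAIP3, IFIH1, OAS1 and OAS2 were each lost without at least 1 untreated array (adjusted p up to 0.24).

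In the BCL2 family BCL2L1, which encodes the survival protein BCL-XL, was the single call of 14, with -0.86 ± 0.16 (adjusted p 0.00506). It read 6.81 and 6.81 untreated and 5.87, 6.01, 6.07 and 5.83 with the inhibitor, a clear gap between the groups, though the adjusted p was 0.0567 or 0.0527 without 1 or the other untreated array. Of 19 glycolysis genes HK2, PDK1 and PFKM fell and PKM rose, and of 22 endoplasmic reticulum chaperone and unfolded protein response genes SEL1L and XBP1 fell. The calls of PDK1, PFKM, PKM and SEL1L were lost without at least 1 untreated array (adjusted p up to 0.168). None of 18 oxidative phosphorylation genes and none of 17 lysosome and autophagy genes passed, on the deposited values. By limma's unadjusted p under 0.05, 1 of the first list was higher and 2 lower, and 3 of the second were higher and 2 lower. After quantile normalization 1 gene of the first list and 3 of the second passed as higher, and the median of the second was 0.21. With the 8 h arrays alone 1 gene of the second passed, and without inhibitor replicate 2 at 8 h 1 gene of the first passed as lower.

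The 4 h and 8 h arrays, pooled in the comparison with untreated cells, differed for 132 probe sets (0.6%), 98 higher and 34 lower at 8 h. That split depended on scaling and on single arrays, with 97 higher and 93 lower after quantile normalization, 47 and 37 after median centring, and 20 and 26 without replicate 1 at 4 h. In limma's fit restricted to LP-1 arrays 0 passed, with 2644 at an unadjusted p under 0.05. Without replicate 1 or replicate 2 at 4 h the count was 46 or 710, and without replicate 1 or replicate 2 at 8 h it was 4 or 268. For MYC the difference of 0.29 missed the threshold (adjusted p 0.445). PECAM1 fell further by -2.47 ± 0.27 (adjusted p 0.0026), DEPTOR, an inhibitor of mTOR that is abundant in myeloma, by -1.37 ± 0.19 (adjusted p 0.0179), and MLKL, the executor of necroptosis, by -1.38 ± 0.21 (adjusted p 0.0225). DEPTOR read 10.09 and 10.29 untreated, 9.41 and 9.78 at 4 h and 8.12 and 8.33 at 8 h. SLAMF7, CXCL10, EDNRB, BLNK and MSMO1 were also lower at 8 h, while SRXN1 rose by a further 1.78 ± 0.19 (adjusted p 0.0026).

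In GPR19 and TASL the 4 h arrays were low and the 8 h arrays stood near or within the untreated values. GPR19, an orphan receptor gene, read 4.97 and 4.61 untreated, 1.97 and 2.82 at 4 h, and 5.08 and 4.36 at 8 h, and the difference between times was 2.32 ± 0.41 (adjusted p 0.0323). TASL, an adaptor of lysosomal innate immune signalling, read 7.39 and 7.41, then 5.68 and 6.40, then 7.30 and 7.21 (1.21 ± 0.20, adjusted p 0.0268). Their pooled changes of -1.23 and -0.75 passed (adjusted p 0.0464 and 0.016) and were lost without either untreated array (adjusted p up to 0.286 and 0.118). For GPR19 leaving out inhibitor replicate 1 at 4 h or replicate 2 at 8 h also ended the call.

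The response of LP-1 differed from that of Raji for 274 probe sets (1.24%). For 213 of them the change was more positive in Raji and for 61 in LP-1, a split of 117 to 77 after quantile normalization. The fall of CCR1 in LP-1 was the largest such difference among the named genes (3.35 ± 0.48, adjusted p 0.00677), and untreated Raji read 2.80 and 3.18. PECAM1, EDNRB and SMC1B were likewise low in untreated Raji, at 3.65 and 3.51, 2.81 and 2.71, and 2.60 and 2.78. NFIL3, a transcription repressor gene, was lower with the inhibitor in LP-1 and higher in Raji. In LP-1 it read 9.76 and 9.57 untreated and 7.88, 8.14, 8.54 and 8.46 with the inhibitor, and in Raji 5.87 and 5.89 untreated and 6.64, 7.26, 6.69 and 6.79 (difference 2.37 ± 0.27, adjusted p 0.0037). The rise of HEXIM1 was larger in Raji by 0.81 ± 0.17 (adjusted p 0.0385). For MYC the difference of 0.69 missed the threshold (adjusted p 0.0957), as did that of TNFRSF17 (0.52, adjusted p 0.543), which read 4.76 and 4.79 untreated and between 2.54 and 3.50 with the inhibitor in Raji. The count of 274 was 56 without LP-1 untreated replicate 1, 78 without replicate 2, 180 without LP-1 inhibitor replicate 1 at 4 h and 1015 without replicate 2. Among the Raji arrays it was 72 and 45 without untreated replicates 1 and 2, and 119 and 133 without inhibitor replicate 2 at 4 h and at 8 h.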

How the data were processed

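Gene expression was measured on Affymetrix exon arrays, with RNA amplified from whole cells, in 20 samples of LP-1 and Raji cells (10 groups of 2). Per the submitters' processing notes, the authors ran RMA (Affymetrix Expression Console), hg19 is the build named, and the deposited values are log2 expression per probe set. Tool versions are not given in the sources used here. RMA's own normalization sets part of the differences between arrays. The deposited log2 values were used without further scaling.

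In a linear model with a coefficient for each of the 10 groups, all 20 arrays were analysed together in limma 3.58.1 (R 4.3.3), with 10 residual degrees of freedom. Contrasts used the mean of the 4 h and 8 h groups, moderated tests were two-sided, and p-values were adjusted by Benjamini-Hochberg over 22011 probe sets, with calls at an adjusted p under 0.05. Folds were taken from the log2 differences. No low values were filtered. On simulated data with this design, 68% of 100 probe sets changed by 1 on the log2 scale and 91% of 100 changed by 2 were recovered, with 5 false among 164 calls. The simulated noise was normal and independent around 1 mean per probe set, without array-wide shifts or differences between lines or times. The simulation therefore does not give the rate of false calls in the real arrays. Precision is limited by how many arrays there are.

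Of the probe sets, 14432 had a single gene symbol in GEO's platform annotation, 2408 had several and 5171 had none. Entrez identifiers of 14404 matched RefSeq, whose current symbols are used, which left 14232 genes, each represented by the probe set that was brightest on average. Promoter windows came from RefSeq on GRCh38.p14. Named genes were MYC, HEXIM1, BRD2, BRD3 and IRF4, the 12 largest called falls and rises with separate groups, up to 4 genes per list by smallest p, and the 6 largest called changes each way of the other comparisons. The members and the 26 gene lists and 4 marker lists were chosen with earlier results of these data known. Lists are described by counts and medians.

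Samples that share a replicate number deviated together with correlations of -0.035 to 0.121 over 10 pairs of groups, so the numbers were not taken to pair samples. Alternatives were quantile normalization, median centring, a filter on low values, trended robust variances, a replicate block, fits to fewer arrays and single times. Each array of the groups in a comparison was also left out in turn.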

Additional observations from a re-analysis of the deposited data

Results flagged for a closer look

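Among 143 named genes, 6 had 1 of the 4 inhibitor arrays far from the other 3, a pattern that chance gives in about 1 of 20 groups. The 4 arrays hold both times. The gap to the nearest array, as a share of the range, was 0.938 for KRT8, an epithelial keratin, and 0.863 for COX7B, a cytochrome c oxidase subunit gene. In both, replicate 1 at 8 h was low. KRT8 read 4.21 there and 9.04, 9.36 and 9.22 in the other 3, and COX7B read 9.80 there and 11.69, 11.81 and 11.996. The share was 0.967 for SLC16A14 (6.05 in replicate 2 at 4 h against 5.22 to 5.25), 0.894 for OR1E1 (4.99 in replicate 1 at 8 h), 0.883 for IKZF1 (6.80 in replicate 2 at 8 h) and 0.858 for ZFP36 (7.15 in replicate 2 at 8 h).

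The test of 8 h against 4 h passed for 16 named genes. The log2 differences of those higher at 8 h were GPR19 (2.32), SRXN1 (1.78), C10orf12 (1.36), IGIP (1.36), FIGNL1 (1.25) and TASL (1.21). Lower at 8 h were PECAM1 (-2.47), GPR119 (-2.08), EGR1 (-1.74), CXCL10 (-1.62), MLKL (-1.38), DEPTOR (-1.37), EDNRB (-1.18), SLAMF7 (-1.11), BLNK (-0.95) and MSMO1 (-0.85). 

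The test of the difference in response between the lines passed for 34 named genes. The change was more positive in Raji, by the log2 differences given, for CCR1 (3.35), TENT5C (2.69), PECAM1 (2.65), SPRY1 (2.55), SLC16A14 (2.51), NFIL3 (2.37), TNFSF15 (2.17), EDNRB (1.99), GIMAP2 (1.98), RGS1 (1.79), MLKL (1.78), MSMO1 (1.56), TRAT1 (1.55), MLLT3 (1.52), SMC1B (1.47), ALX1 (1.41), PRKAA2 (1.31), USP2 (1.26), CIITA (0.92) and HEXIM1 (0.81). It was more positive in LP-1 for GPR50 (-2.24), TUFT1 (-2.18), PYGO1 (-2.15), OR1E1 (-2.01), PAG1 (-1.98), SCIMP (-1.85), FTL (-1.83), ATP1B1 (-1.27), H2AC11 (-1.26), SRXN1 (-1.24), ZFP36 (-1.16), DDIT3 (-1.09), ATF3 (-0.88) and OSGIN1 (-0.82).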

How the results depend on the processing

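Of 100 named genes called against untreated cells, 61 passed without each of the 6 compared arrays in turn, and 96 lost the call with those 6 arrays alone. Without untreated replicate 1, 31 lost it, and without replicate 2, 37. The total of 2028 calls became 1051 with LP-1 arrays only (999 of them among the 2028), 8 with the 6 arrays and 656 to 2679 with 1 array left out (614 and 1867 of these among the 2028). The enantiomer's 17 became 10 after quantile normalization, 1 with LP-1 arrays only, 3 at 4 h, 111 at 8 h and 5 to 14 with 1 array left out. The inhibitor against enantiomer had 714 with LP-1 arrays only, 502 at 4 h and 828 to 1577 with 1 array left out. For 8 h against 4 h, 132 became 84 with centring, 320 without low probe sets, 213 with trended variances, 0 with LP-1 arrays only (2644 at an unadjusted p under 0.05 in limma) and 4 to 710 with 1 array left out. The Raji difference had 169 at 4 h, 181 at 8 h and 45 to 1015 with 1 array left out. The replicate numbers were not taken to pair the samples, though the correlations given above cannot exclude a shared batch. With the replicate block, 1967, 13, 1493, 59 and 255 passed in these 5 comparisons. Signs turned in 6 genes that were not called. C10orf12 was -0.41 and KRT8 0.21 with 4 h only. ALAS2 was -0.12, GPR119 -0.77 and IRF4 0.10 with 8 h only. With 1 array left out, ALAS2 ranged from -0.16 to 0.27, BRD3 from -0.066 to 0.16, GPR119 from -0.16 to 0.70, IRF4 from -0.28 to 0.0086 and KRT8 from -2.28 to 0.23. The cause was not tested for any of these. Signal over background is unknown, which limits low probe sets.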
